A study of Drosophila melanogaster with 6 samples.

Results

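The 6 genes described here lay out the head of the Drosophila embryo. They are ocelliless (oc, also called orthodenticle), empty spiracles (ems), buttonhead (btd), knot (kn, also called collier), cap-n-collar (cnc) and crocodile (croc). They were taken as the rows of the deposited count table whose FlyBase identifier carries 1 of these 6 symbols in the dm6 annotation, and all 6 were found among the 17753 genes of the table. All 6 also passed the minimum of 10 counts on average over the libraries, which left 10429 genes for testing.

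The anterior part of the fly head is not divided by the pair-rule genes that pattern the trunk. Maternal Bicoid protein, spread as a gradient from the anterior pole, and the Torso receptor, active at both poles, switch on oc, ems and btd in broad overlapping bands, the head gap genes. Together with kn, cnc and croc, which are switched on in narrower domains, they set up the segments and lobes of the head while the blastoderm forms cells.

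The study asked how transcription at zygotic genome activation depends on Domino, a chromatin remodeller that exchanges histone H2A for its variant H2A.Z. Nascent RNA was measured by GRO-seq, in which polymerases already engaged on DNA run on in isolated nuclei with a tagged nucleotide and the tagged RNA is captured and sequenced. DomKD embryos (genotype labelled t216) came from mothers with a short hairpin RNA against both isoforms of domino under the maternal germline driver mat-alpha-Gal4, and Ctrl embryos (genotype labelled t180) came from mothers of the TRiP control line with the same driver. All embryos were picked by hand at stage 5 and pooled, so each library is an average over many whole embryos, and both groups carry the driver.

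There were 3 libraries per group in 2 batches, named by the letters of the sample titles. DomKD A1 and DomKD A2 share batch A with Ctrl A1, and DomKD B1 shares batch B with Ctrl B1 and Ctrl B2. Total counts were 10660708 to 15790602 in DomKD and 12487166 to 24537992 in Ctrl, and 564 to 1014 of the tested genes had no read in DomKD libraries, against 162 to 326 in Ctrl libraries. The 3 values of a group are given below in the order A1, A2 and B1 for DomKD and A1, B1 and B2 for Ctrl. The nascent RNA of dom, the targeted gene, was at 665, 690 and 966 CPM (counts scaled to a common library size by TMM) in DomKD, and at 848, 811 and 707 CPM in Ctrl. These values overlap, but RNA interference acts on finished transcripts in the mother, so nascent RNA of the embryo does not check the labels. All 8 stage 5 blastoderm markers (eve, ftz, run, sna, twi, sog, zen and nullo) were present in every library, with a summed level of 8248 to 13275 CPM in DomKD and 3313 to 6566 CPM in Ctrl. The 6 markers of pole cells and maternal germline summed to 107 to 146 CPM in DomKD and 112 to 113 CPM in Ctrl, and 0 of the 6 were called. Of these, vas, nos and osk had no read in DomKD B1, and within batch A all 3 were higher in both DomKD libraries than in Ctrl A1. In the same comparison pgc and gcl were lower in both DomKD libraries, and aub lay on both sides of Ctrl A1. The yolk protein genes summed to 2.34 to 5.66 CPM in DomKD and 6.01 to 10.2 CPM in Ctrl.

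With TMM scaling, nascent RNA of 5 of the 6 head genes was higher in DomKD than in Ctrl embryos, by 1.49-fold for ems to 2.25-fold for croc, while scaling on a list of Zelda targets turned the change of oc, ems and cnc negative and left none of the 6 past the threshold. The sixth gene, kn, was weakly transcribed and its libraries overlapped. Across all genes tested, 21.7% passed the same threshold (edgeR's quasi-likelihood test, Benjamini-Hochberg adjusted p under 0.05), with 12.1% higher and 9.64% lower in DomKD. None of the 6 head genes was lower. Without DomKD B1, the only DomKD library of batch B, 0 of the 6 and 9 of all genes passed. That fit compares the groups within batch A alone, where Ctrl A1 is the only Ctrl library. Without Ctrl A1 3 of the 6 (btd, cnc and croc) passed, in a fit that compares the groups within batch B alone. The median log2 fold change was 0.80 over the 6 head genes and -0.07 over all genes tested. In extracts of whole embryos, more cells that transcribe a gene and more nascent RNA per cell cannot be told apart.

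**Figure D1:**
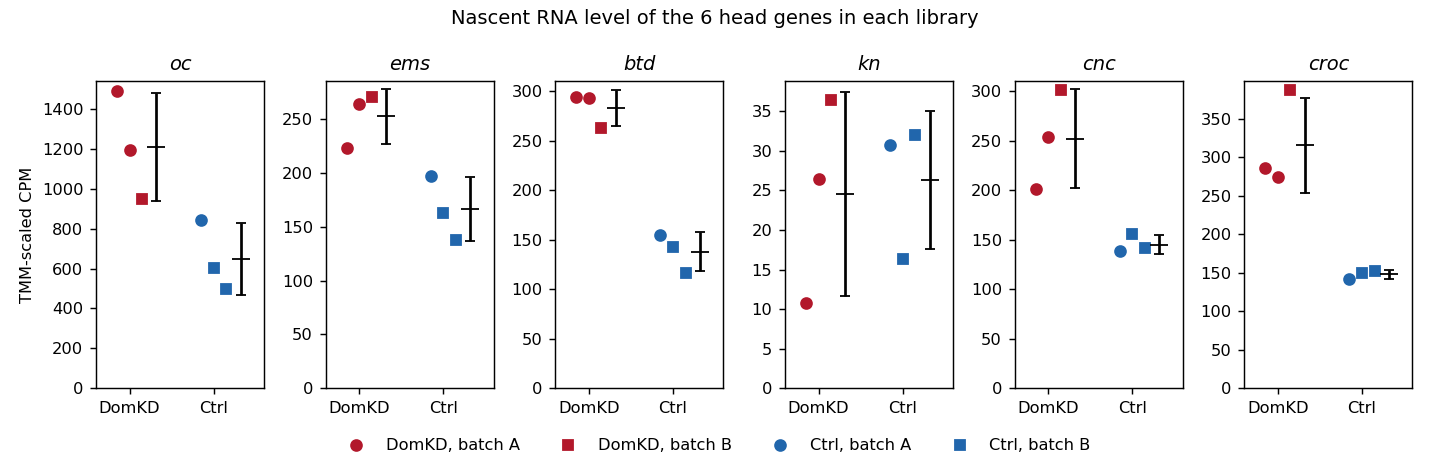
TMM-scaled CPM (y axis, from 0, a separate scale per gene) of the 6 head genes in each library, with DomKD left of Ctrl, circles for batch A, squares for batch B, and the mean with its SD (n = 3 per group) beside the points. The DomKD libraries lie above all Ctrl libraries for oc, ems, btd, cnc and croc on this scale, and those of kn, between 10.8 and 36.5 CPM, overlap the Ctrl libraries; under scaling on Zelda targets the differences of oc, ems and cnc have the opposite sign.

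The bases just before the annotated starts of the 5 genes that were higher are shown because the promoter is where polymerase is loaded. The study reported less H2A.Z over active promoters in DomKD embryos. From GRO-seq scaled on its own Zelda targets, it also reported lower transcription of H2A.Z-positive genes in DomKD. The TMM scaling used here differs from that scaling. Whether the promoters of these 5 genes carry H2A.Z was not examined here. Each line holds the 250 bases before the most upstream start, read along the strand of the gene from the dm6 assembly (RefSeq Release 6), and capitals mark GAGAG or its other strand CTCTC, the letters bound by GAGA factor. The windows are chr3L:21476480-21476729 (minus strand) for croc, chrX:9693936-9694185 (plus strand) for btd, chr3R:23226712-23226961 (minus strand) for cnc, chrX:8650682-8650931 (minus strand) for oc and chr3R:13901603-13901852 (plus strand) for ems.
croc: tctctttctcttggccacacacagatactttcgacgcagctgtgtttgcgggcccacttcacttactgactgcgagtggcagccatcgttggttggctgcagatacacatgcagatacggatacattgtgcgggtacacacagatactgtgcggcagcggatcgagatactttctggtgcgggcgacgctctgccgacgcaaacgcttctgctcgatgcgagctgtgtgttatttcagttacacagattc
btd: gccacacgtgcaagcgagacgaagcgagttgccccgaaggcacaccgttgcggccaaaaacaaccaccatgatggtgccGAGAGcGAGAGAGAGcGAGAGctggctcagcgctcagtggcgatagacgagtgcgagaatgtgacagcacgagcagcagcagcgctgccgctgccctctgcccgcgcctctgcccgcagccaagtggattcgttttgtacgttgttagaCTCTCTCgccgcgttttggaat
cnc: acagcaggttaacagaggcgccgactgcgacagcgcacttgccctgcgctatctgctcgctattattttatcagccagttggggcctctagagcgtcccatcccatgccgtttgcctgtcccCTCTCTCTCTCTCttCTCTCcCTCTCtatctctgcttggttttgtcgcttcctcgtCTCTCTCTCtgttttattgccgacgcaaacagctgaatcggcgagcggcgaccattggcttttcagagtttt
oc: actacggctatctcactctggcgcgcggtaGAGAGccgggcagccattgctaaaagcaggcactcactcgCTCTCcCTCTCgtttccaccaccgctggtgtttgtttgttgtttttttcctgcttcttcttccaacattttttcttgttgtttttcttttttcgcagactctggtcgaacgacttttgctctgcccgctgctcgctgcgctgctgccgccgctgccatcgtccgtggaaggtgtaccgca
ems: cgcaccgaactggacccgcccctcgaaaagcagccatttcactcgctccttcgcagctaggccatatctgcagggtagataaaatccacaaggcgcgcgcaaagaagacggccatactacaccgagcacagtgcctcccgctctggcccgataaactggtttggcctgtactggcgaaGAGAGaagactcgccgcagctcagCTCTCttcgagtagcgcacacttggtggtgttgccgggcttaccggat

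The windows of btd, cnc, oc and ems hold the GAGA letters. That of croc holds none, but a run of overlapping matches ends at its edge, 277 to 251 bases before the start, and the 1000 bases before the start of croc hold 27 matches. In btd 7 matches, some overlapping, lie in a block 171 to 155 bases before the start and again at 22 and 20 bases before it. In cnc 10 matches, mostly overlapping in a CT repeat, lie 128 to 68 bases before the start. In oc 3 matches lie 220 to 174 bases before it.

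Counted over the window of 250 bases before to 50 bases after the start, GAGAG on either strand was found in 4 of the 6 head genes and in 29.7% of 13968 protein-coding promoters. With 1000 bases before the start, a window chosen after seeing the data, it was in 5 of the 6, croc included, and in 67.6% of promoters. The Zelda site CAGGTAG was in none of the 6 and in 1.64% of all promoters, and its shorter core AGGTAG in none of the 6 and in 5.52%, although the shorter core is found at 1 other annotated start of cnc. TAATCC, the core read by Bicoid and by Orthodenticle itself, was found in the window of kn alone, 44 bases after the start, and in 8.73% of all promoters. The DRE core TATCGATA was in none of the 6 and in 9.36%, and TATAAA on the plus strand in none of the 6 and in 32.1%. The Initiator letters TCAGT on the plus strand were in btd, cnc and croc and in 36.05% of promoters, and in croc one copy begins 2 bases before the start, which puts its A on the first transcribed base. A match describes letters in a window, and the window leaves out the distant enhancers that drive these genes.

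Orthodenticle, the product of oc, is a homeodomain protein of the Otx family that specifies the antennal and ocular regions of the head and later the ocelli. The gene (FBgn0004102, X, 8630159 to 8650681, minus strand) has 6 annotated transcripts from 3 starts. It took 13362, 10779 and 12689 reads in DomKD, which is 1490, 1197 and 949 CPM, and 11912, 17184 and 12829 reads in Ctrl, which is 845, 604 and 496 CPM. On this TMM scale the lowest DomKD library, B1, was above the highest Ctrl library, A1. In each group batch A was the higher. The log2 fold change was 0.73 ± 0.17 (SE, n = 3 per group, adjusted p = 0.0103 by edgeR), and without DomKD B1 it was 0.67 with an adjusted p of 0.154, and without Ctrl A1 0.72 with an adjusted p of 0.0993.

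Buttonhead is a zinc finger protein of the Sp family needed for the antennal, intercalary and mandibular segments. The gene btd (FBgn0000233, X, 9694186 to 9697558, plus strand, 1 start) stood at 294, 293 and 263 CPM in DomKD, from 2641, 2638 and 3512 reads, and at 155, 143 and 116 CPM in Ctrl, from 2188, 4073 and 3004 reads. On the TMM scale the DomKD libraries lay close together and far above the Ctrl libraries. With a log2 fold change of 0.97 ± 0.15 (adjusted p = 0.00168 by edgeR), or 1.96-fold, btd was higher in both batches, by 0.92 within batch A and 1.03 within batch B. Leaving out DomKD B1 gave 0.92 with an adjusted p of 0.0704. Scaled by total counts, btd was at 0.49 (adjusted p = 0.0194 by edgeR). Scaled on the list of Zelda targets, it was at 0.028 (adjusted p = 0.919).

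Empty spiracles is a homeodomain protein, related to the Emx proteins of vertebrates, needed for the antennal and intercalary segments and for the posterior spiracles. Its gene ems (FBgn0000576, 3R, 13901853 to 13904620, plus strand, 1 start) was at 223, 264 and 271 CPM in DomKD, from 2002, 2382 and 3620 reads, and at 197, 163 and 138 CPM in Ctrl, from 2784, 4645 and 3575 reads. The groups did not overlap on the TMM scale, but in batch A the gap between DomKD A1 and Ctrl A1 was small. For ems the log2 fold change was 0.58 ± 0.17 (adjusted p = 0.0339 by edgeR), with 0.30 within batch A and 0.85 within batch B. This was the weakest of the 5 calls, lost in 5 of the 6 fits with 1 library left out, with log2 fold changes of 0.30 to 0.78 in those 6 fits, and kept only without DomKD A1.

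Crocodile is a forkhead protein of the FoxC family needed in the clypeolabrum and the anterior part of the intercalary segment. The gene croc (FBgn0014143, 3L, 21474133 to 21476479, minus strand) has no intron. It was at 287, 274 and 387 CPM in DomKD, from 2573, 2469 and 5177 reads, and at 142, 150 and 152 CPM in Ctrl, from 2000, 4274 and 3945 reads. With TMM scaling the 3 Ctrl libraries were nearly alike, and every DomKD library was well above them, B1 most of all. The log2 fold change of 1.17 ± 0.15 (adjusted p = 0.000798 by edgeR) was the largest of the 6, above that of 87.0% of all genes tested. In batch A alone croc differed by 0.98 and in batch B alone by 1.35. Leaving out DomKD B1 gave 0.98 with an adjusted p of 0.0578. Scaled by total counts, croc was at 0.69 (adjusted p = 0.0047 by edgeR). Scaled on the list of Zelda targets, it was at 0.23 (adjusted p = 0.226).

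Cap-n-collar is a basic leucine zipper protein related to vertebrate Nrf2. A form made in the mandibular and labral primordia separates mandibular from maxillary fate, and another is known from the response to oxidative stress. The gene cnc (FBgn0262975, 3R, 23185580 to 23226711, minus strand) spans 41132 bases, with 16 transcripts from 10 starts, so counts over the gene pool these forms. It was at 201, 254 and 301 CPM in DomKD, from 1806, 2287 and 4029 reads, and at 138, 156 and 141 CPM in Ctrl, from 1950, 4439 and 3656 reads. As with croc, the Ctrl libraries were close together on the TMM scale and DomKD B1 was the highest of all. For cnc the log2 fold change was 0.87 ± 0.16 (adjusted p = 0.00379 by edgeR), with 0.71 in batch A alone and 1.02 in batch B alone, and leaving out DomKD B1 gave 0.72 with an adjusted p of 0.117. The gene fzo lies inside cnc on the same strand over 2391 bases and was counted at 0 in all 6 libraries, since reads that fall in both genes are assigned to neither.

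Knot is a transcription factor of the COE family that in the head specifies the intercalary segment and later acts in blood cell and neuron precursors. The gene kn (FBgn0001319, 2R, 14772650 to 14807061, minus strand, 3 starts) had 97, 238 and 488 reads in DomKD, or 10.8, 26.4 and 36.5 CPM, and 433, 464 and 827 reads in Ctrl, or 30.7, 16.3 and 31.96 CPM. DomKD A1 was the lowest library and DomKD B1 the highest, with all Ctrl libraries between them. For kn the log2 fold change was -0.06 ± 0.42 (adjusted p = 0.946 by edgeR), with -0.86 within batch A and 0.67 within batch B. Its sign turned without DomKD A1, Ctrl A1 or Ctrl B2, at 0.26, 0.53 and 0.06. The group by batch term for kn had an unadjusted p of 0.178 and an adjusted p of 0.839 by edgeR, so a difference between the batches was not shown. The biological coefficient of variation that edgeR gave kn was 0.374, against 0.142 to 0.159 for the other 5 genes.

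The DomKD and Ctrl libraries did not overlap for 5 of the 6 head genes, and 40.6% of all genes tested had no overlap. An exact two-sided permutation test, with 20 ways to arrange the libraries, gave a p of 0.1 for each of those 5 genes, the smallest that 3 against 3 allows, and 0.7 for kn. Any gene whose groups do not overlap gets a p of 0.1 in this test, so it adds nothing to the lack of overlap. The group by batch term had an unadjusted p under 0.05 for 0 of the 6 head genes, and by edgeR it passed adjustment for 0 of 10429 genes, 608 of which had an unadjusted p under 0.05.

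Because each fold change depends on how the libraries were scaled, the genes were also set against each other. Scaled by total counts, btd and croc remained past the threshold, the median of the 6 was 0.32, and the median of all genes moved to -0.56. Scaled on 45 genes of a list of Zelda targets written from general knowledge, 0 of the 6 passed, their median was -0.14, and the median of all genes was -1.01. TMM scaling called 1259 genes higher and 1005 lower, total counts 538 higher and 2747 lower, and the Zelda list 101 higher and 4575 lower. A scaling moves all genes by nearly the same amount, so the distance of the head genes from the median of all genes (0.87 on the log2 scale for the median of the 6 under TMM, and close to 0 for kn) and the order of the 6 changes, from croc through btd, cnc, oc and ems to kn, hardly depend on it and are no sign of stability.

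**Figure D2:**
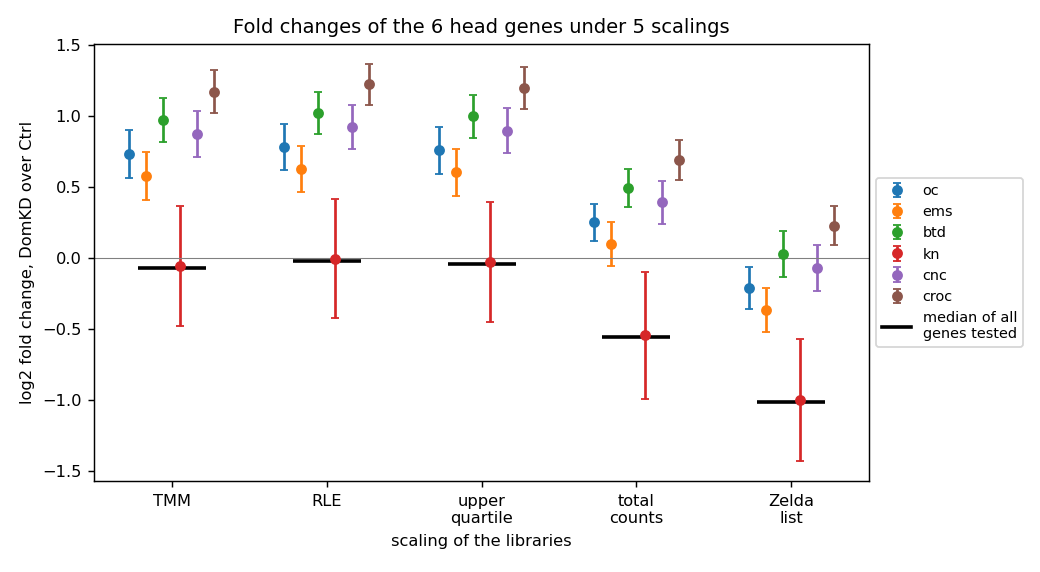
The log2 fold change of each head gene, DomKD over Ctrl, with its SE (y axis) under 5 scalings of the same counts (x axis), and the median of all genes tested as a black bar. Points and bars move down together, so that the median of all genes goes from -0.07 under TMM to -1.01 under the Zelda list, where oc, ems and cnc fall below 0, while the distance of each gene from the bar stays nearly the same, as the scaling moves all genes alike.

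A comparison free of scaling is that of reads within a library, here per 100 reads of oc, whose gene took 43.0% to 59.4% of the reads of the 6 genes in DomKD and 46.1% to 56.0% in Ctrl. There were 19.3, 22.9 and 40.8 reads of croc per 100 reads of oc in DomKD, and 16.8, 24.9 and 30.8 in Ctrl. The groups overlapped, but within each batch croc was higher relative to oc in DomKD. For btd the numbers were 19.8, 24.5 and 27.7 in DomKD, and 18.4, 23.7 and 23.4 in Ctrl, again higher within each batch.

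For ems there were 15.0, 22.1 and 28.5 reads per 100 of oc in DomKD, and 23.4, 27.0 and 27.9 in Ctrl. This put ems lower relative to oc in DomKD within batch A and higher within batch B. For cnc there were 13.5, 21.2 and 31.8 in DomKD, and 16.4, 25.8 and 28.5 in Ctrl. For kn there were 0.726, 2.21 and 3.85 in DomKD, and 3.64, 2.70 and 6.45 in Ctrl. None of the 5 ratios to oc separated the groups. As a share of the reads of the 6 genes, btd took 11.7% to 12.7% in DomKD and 10.3% to 11.6% in Ctrl, and ems took 8.91% to 12.3% in DomKD and 12.8% to 13.2% in Ctrl, while the shares of the other 4 genes overlapped.

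**Figure D3:**
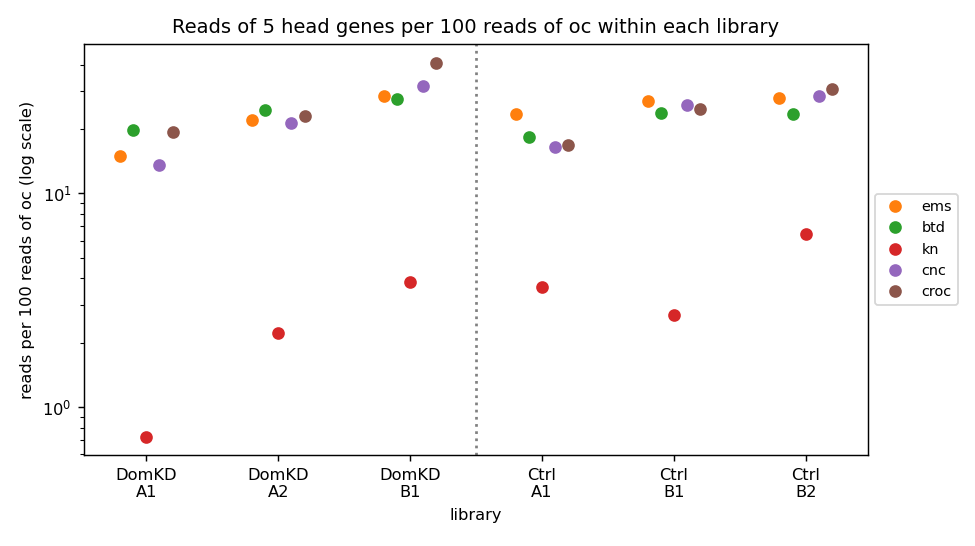
Reads of ems, btd, kn, cnc and croc per 100 reads of oc (y axis, log scale) in each library (x axis), DomKD left of the dotted line and Ctrl right of it. The DomKD libraries spread from 0.726 to 3.85 for kn and from 13.5 to 31.8 for cnc, and overlap the Ctrl libraries, which run from 2.70 to 6.45 for kn and from 16.4 to 28.5 for cnc.

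The libraries of one group thus differed from each other in the balance of the head genes. In DomKD, oc was highest in A1 and lowest in B1, whereas ems, kn and cnc were lowest in A1 and highest in B1. The gene nullo, which is transcribed for a short time as cellularization begins, had 693, 357 and 14.4 CPM in DomKD, and 150, 8.50 and 8.97 CPM in Ctrl. It was thus high in batch A and, within batch A, higher in both DomKD libraries than in Ctrl A1. The neuronal gene elav had 224, 260 and 488 CPM in DomKD, and 281, 509 and 425 CPM in Ctrl, with the low values in batch A. Other markers of later tissues did not follow elav. Syt1, a neuronal gene too, had 38.02, 50.3 and 37.3 CPM in DomKD, and 20.3, 15.0 and 10.2 CPM in Ctrl, and was the only one of the 6 called (1.34 ± 0.29, adjusted p = 0.00796), while nSyb was at -0.68 ± 0.51 (adjusted p = 0.386). All 8 blastoderm markers were higher in DomKD (edgeR, TMM), against 12.1% of all genes tested, with a median log2 fold change of 1.13. Under scaling on the Zelda list 0 of the 8 passed. Genes used for scaling are drawn towards 0, and the list was not checked for these markers. The part of these markers in the values of the head genes was not tested.

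Levels were compared between genes per kilobase of the deposited gene length, which covers introns. In DomKD, croc had 135 ± 26.3 CPM per kilobase (SD, n = 3), ems 91.3 ± 9.32, btd 84.0 ± 5.33, oc 59.0 ± 13.2, cnc 6.13 ± 1.21 and kn 0.714 ± 0.376 CPM per kilobase. In Ctrl the order was the same, with 63.1 ± 2.38 for croc, 60.1 ± 10.7 for ems, 40.9 ± 5.93 for btd, 31.6 ± 8.70 for oc, 3.53 ± 0.230 for cnc and 0.765 ± 0.253 CPM per kilobase for kn. In DomKD only the neighbours ems and btd overlapped in their ranges, and in Ctrl croc overlapped ems and btd overlapped oc. Per kilobase of exons oc came first in both groups, with 240 ± 53.7 in DomKD and 129 ± 35.4 CPM per kilobase in Ctrl. Among all genes tested, croc stood at the 95.3rd percentile of level per kilobase in DomKD and the 93.8th in Ctrl, and kn at the 14.5th in DomKD and the 17.6th in Ctrl.

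The genes that act upstream of the head genes were examined next. Of 8 such genes, 6 were higher in DomKD and 0 were lower, against 12.1% higher and 9.64% lower of all genes tested. Their median log2 fold change was 1.26. The morphogen gene bcd, a maternal gene, had 26.0, 16.3 and 16.0 CPM in DomKD, and 6.95, 1.79 and 2.55 CPM in Ctrl (log2 fold change 2.24 ± 0.49, adjusted p = 0.00809). Although weak, it did not overlap between groups. The germline marker osk had 18.6 and 24.8 CPM in DomKD A1 and A2, against 4.96 CPM in Ctrl A1. Another, vas, had 7.02 and 6.66 CPM in DomKD A1 and A2, against 2.34 CPM in Ctrl A1. Both had no read in DomKD B1, in which bcd was at 16.0 CPM. Likewise nos was higher in both DomKD libraries of batch A and had no read in DomKD B1. By contrast, within batch A pgc and gcl were lower in both DomKD libraries, and aub lay on both sides of Ctrl A1. The part of germline markers in the value of bcd was not tested. The gap gene hb, which acts with Bicoid at the anterior, had 3081, 2482 and 1583 CPM in DomKD, and 1352, 627 and 468 CPM in Ctrl (1.29 ± 0.19, adjusted p = 0.00135). Its libraries stood in the same order as those of oc.

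The terminal gap genes tll and hkb, which are switched on by Torso signalling, changed by 1.42 ± 0.18 and 1.24 ± 0.18 on the log2 scale, and gt, an anterior and posterior gap gene, by 1.07 ± 0.17. Capicua, from cic, is the repressor that Torso signalling removes, and its gene changed by 1.41 ± 0.15 (adjusted p = 0.000446 by edgeR). The corepressor gene gro was at 177, 244 and 207 CPM in DomKD, and 285, 340 and 262 CPM in Ctrl, with a log2 fold change of -0.49 ± 0.18 that did not pass (adjusted p = 0.0773). For the receptor gene tor, with 0 reads in DomKD B1, the estimate of -0.85 ± 1.06 was not informative. Under the Zelda list scaling tll and cic alone of the 6 genes called here stayed past the threshold, all 6 stayed above 0, and gro was lower (-1.43, adjusted p = 0.000279), as it was under total counts (-0.96, adjusted p = 0.00251) and with no count filter (-0.51, adjusted p = 0.0361). Without DomKD B1 0 of the 6 passed. Genes used for scaling are drawn towards 0. The Zelda list was not checked for these genes or for the lists of related genes below.

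Other genes of head development were read from the same fit. Of 17 tested, 9 were higher and 0 were lower, against 12.1% higher and 9.64% lower of all genes tested. The median log2 fold change of the 17 was 0.68. Among those called were the homeobox gene hbn at 0.94 ± 0.15, the forkhead gene slp2 at 0.92 ± 0.19, the LIM homeobox gene Lim1 at 0.71 ± 0.17 and the gap gene kni at 1.00 ± 0.17. The Hox genes lab and Dfd, which mark the intercalary segment and the mandibular and maxillary segments, changed by 1.03 ± 0.26 and 0.59 ± 0.18 (adjusted p = 0.0149 and 0.0399 by edgeR). Also called were slp1, so and bowl, at 0.56, 0.94 and 0.68. The other 8 did not pass. Among them Optix, toy and ey were at 0.01 ± 0.27, 0.21 ± 0.24 and 0.00 ± 0.32. Higher estimates that did not pass were those of knrl at 0.33 ± 0.17, erm at 0.45 ± 0.36 and eya at 0.53 ± 0.22. The largest were those of pb at 0.98 ± 0.52 and Rx at 1.39 ± 0.63. Under the Zelda list scaling the median of the 17 was -0.26, with 0 higher and 3 lower (Optix, ey and knrl), and without DomKD B1 0 of the 9 passed.

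**Figure D4:**
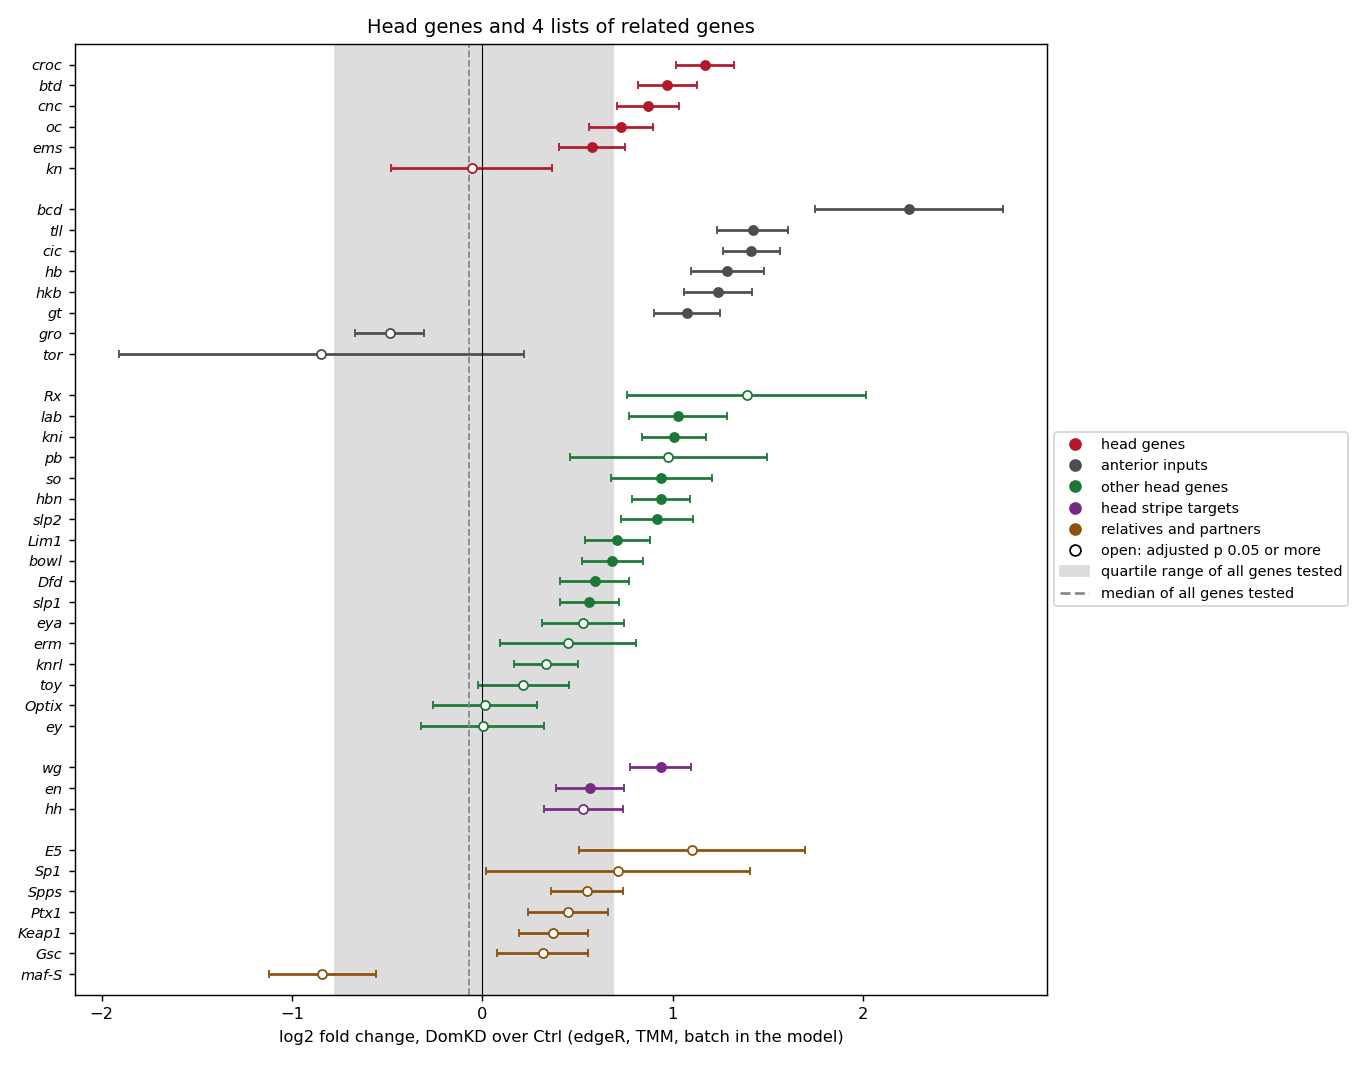
The log2 fold change, DomKD over Ctrl, with its SE (x axis) for the 6 head genes and 4 lists of related genes (rows), filled where the edgeR adjusted p was under 0.05 and open otherwise, with the median and the range between the lower and upper quartiles of all genes tested in grey. With TMM scaling 5 of 6 head genes, 6 of 8 anterior inputs, 9 of 17 other head genes, 2 of 3 head stripe targets and 0 of 7 relatives and partners were higher; under scaling on Zelda targets 0, 2, 0, 0 and 0 genes of these lists were higher and 0, 1, 3, 0 and 3 lower.

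The stripe genes wg, en and hh, whose head stripes depend on the head gap genes, were at 0.94 ± 0.16, 0.56 ± 0.18 and 0.53 ± 0.21 (adjusted p = 0.00257, 0.0417 and 0.0923 by edgeR), but these genes also have trunk stripes, which whole embryos do not separate. The call of en was lost in 5 of the 6 fits with 1 library left out, kept only without DomKD A1, and without DomKD B1 neither wg (adjusted p = 0.0953) nor en (0.241) passed. Under the Zelda list scaling the log2 fold changes of wg and en were -0.0081 and -0.38, and neither passed. The relatives and partners of the head genes gave no call among 7 with TMM scaling, while under the Zelda list 3 were lower, maf-S at -1.78 (adjusted p = 0.00146), Keap1 at -0.57 (0.0317) and Gsc at -0.63 (0.0397). Sp1 and Spps, the other Sp family genes, were at 0.71 ± 0.69 and 0.55 ± 0.19 (adjusted p = 0.514 and 0.0595 by edgeR), and Spps passed under RLE (0.0384) and upper quartile scaling (0.0461), with DESeq2, and with other count filters. E5, the paralog of ems, had 7.47, 7.11 and 12.8 CPM in DomKD, and 4.75, 4.18 and 4.41 CPM in Ctrl (1.10 ± 0.59, adjusted p = 0.215). The groups did not overlap at these low levels. The Cnc partner gene maf-S was at 30.5, 27.3 and 24.0 CPM in DomKD, and 37.9, 63.6 and 53.8 CPM in Ctrl (-0.84 ± 0.28, adjusted p = 0.0524), opposite in sign to cnc, and it passed under total counts (adjusted p = 0.00687), without batch (0.0441) and with no count filter (0.0203). Keap1, whose product holds Cnc in check, was at 0.37 ± 0.18 (adjusted p = 0.171), and the homeobox genes Gsc and Ptx1, related to oc, were at 0.32 ± 0.24 and 0.45 ± 0.21.

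The nearest tested protein-coding genes on both sides of each head gene were examined to describe the loci. While 21.7% of all genes tested were called, 1 of these 12 neighbours was. It was Neu2, 8.41 kilobases from croc, with 3017, 1640 and 494 CPM in DomKD, and 570, 193 and 112 CPM in Ctrl (1.86 ± 0.28, adjusted p = 0.00128). Unlike croc, Neu2 was highest in DomKD A1, and its groups overlapped. The neighbour of btd on one side, nej, 7.12 kilobases away, had 532, 627 and 715 CPM in DomKD, and 784, 884 and 765 CPM in Ctrl, a log2 fold change of -0.32 ± 0.16 (adjusted p = 0.178). On the other side lies Sp1, 32.1 kilobases away.

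For oc, Caf1-180 and Rubicon, 23.9 and 26.4 kilobases away, were at 0.35 ± 0.15 and 0.29 ± 0.22. For ems, E5 and Ipp were at 1.10 and -0.56. The kn gene ends 0.019 kilobases from the end of BEAF-32, a boundary factor gene on the opposite strand, which was at 27.7, 39.7 and 33.3 CPM in DomKD, and 52.3, 51.9 and 57.1 CPM in Ctrl (-0.67 ± 0.24, adjusted p = 0.0639). For cnc, CG4467, 1.01 kilobases upstream, was at 0.11 ± 0.34, and Irk1, which overlaps its 3' end by 63 bases on the opposite strand, had 0 to 35 reads per library.

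**Figure D5:**
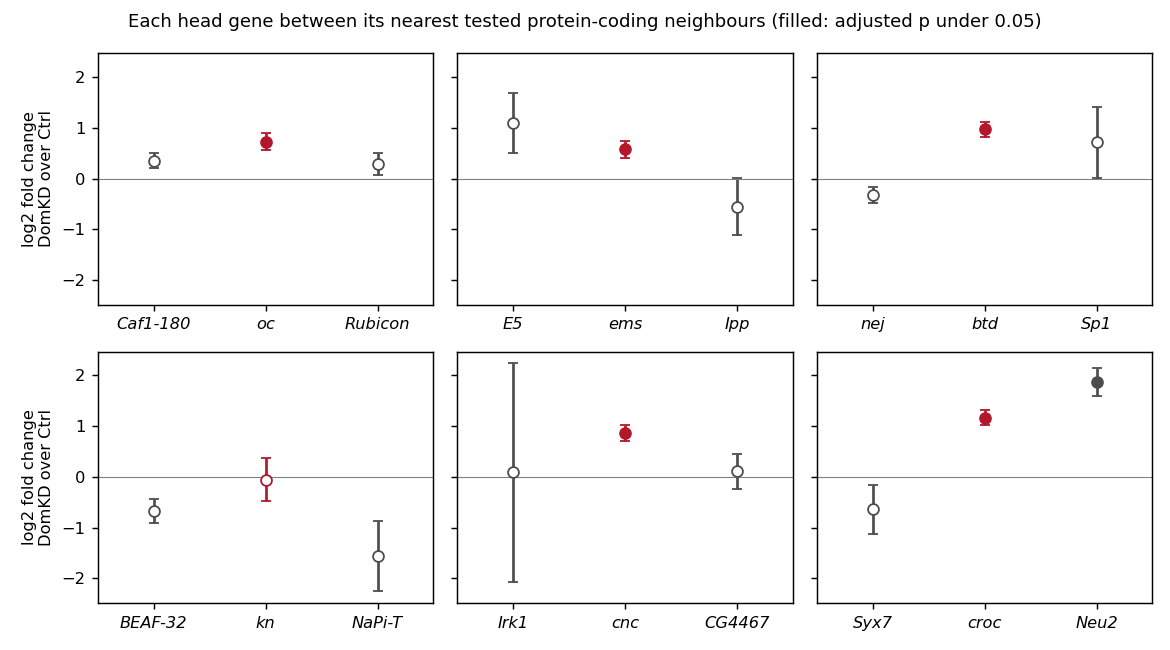
The log2 fold change, DomKD over Ctrl, with its SE (y axis, TMM scaling) of each head gene (red, middle) and its nearest tested protein-coding neighbours (grey, lower coordinate left, higher coordinate right), filled where the edgeR adjusted p was under 0.05. Of the 12 neighbours only Neu2, beside croc, is filled; under the Zelda list scaling no head gene would be filled and oc, ems and cnc would lie below 0.

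Finally, the genes whose log2 CPM ran most like each head gene over the 6 libraries were sought among 6787 protein-coding genes with at least 100 counts on average. For oc these were CG12541 and l(3)mbt, with Pearson correlations of 0.999 and 0.998, for btd CG43163 and Svil, both at 0.999, and for ems CG14186 and kek1, at 0.997 and 0.988. For cnc they were CG2930 and Zasp52, at 0.997 and 0.994, for croc Atg9 and CG13894, at 0.998 and 0.995, and for kn beg and CG31792, at 0.961 and 0.953. The points share 6 libraries in 2 groups, and many genes run alike over so few, 493 of them with a correlation over 0.9 to oc, 594 to btd, 323 to cnc, 378 to croc, 294 to ems and 15 to kn.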

How the data were processed

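The authors deposited counts, whole numbers of GRO-seq reads per gene for 6 libraries, beside a gene length. Adapters had been removed with Cutadapt 2.5 and random tags with UMI-tools 1.0, and alignments to dm6 made with Bowtie2 were counted by gene and strand with featureCounts, without removing duplicates, so reads of a gene are not independent molecules and counts carry more than counting error. Reads that overlap 2 genes on a strand could not be assigned.

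Names and positions came from Ensembl annotation of the same assembly, and 17626 of 17753 genes matched by FlyBase identifier. To check the sequence used (RefSeq Release 6), 30618 start codons were read, of which 99.83% were ATG.

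Counts were tested with edgeR 4.0.16 in R 4.3.3 (glmQLFit with robust estimation, glmQLFTest, two-sided), with TMM scaling, batch and group in the model, a mean of at least 10 counts, and Benjamini-Hochberg adjustment over all 10429 genes, at a threshold of 0.05. A prior count of 2 was added for log2 CPM. The scripts were tested on simulated data. Libraries of a group are separate biological replicates per the study's methods. All pairs of libraries differed by far more than counting noise.

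The study used DESeq2 with size factors from its own set of Zelda targets, which is not used here. DESeq2 1.42.0 with a list of 48 Zelda targets from general knowledge, 45 of them tested, was an alternative, as were other scalings and filters, fits without batch or with a replicate block, and each library left out. The Zelda list was checked to hold none of the 6 head genes, but was not checked for marker genes or the 4 lists of related genes. The genes named are the 6 head genes, 4 lists of related genes, the nearest tested protein-coding neighbours and the 2 most alike genes per head gene. Marker genes describe the libraries, and dom and Neu2 are given as the targeted gene and a neighbour. The members and lists were chosen with earlier results of these data known. One listed head gene, scro, had an identifier that was not matched. Amino acid sequences were not used here.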

Additional observations from a re-analysis of the deposited data

How the results depend on the processing

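Direction depended on scaling. With the Zelda list, 4676 genes were called, 0 head genes were higher, their median was -0.14, and oc, ems and cnc turned to -0.21, -0.37 and -0.072 (adjusted p = 0.278, 0.0759 and 0.768). With DESeq2 on Zelda size factors without batch, 4919 genes were called, 0 head genes were higher, the median was -0.22, and oc, ems, btd and cnc were at -0.15, -0.45, -0.039 and -0.29. Total counts left 2 head genes higher, with a median of 0.32. The share higher among all calls was 1259 of 2264 under TMM, 538 of 3285 under total counts and 101 of 4676 under the Zelda list. RLE and upper quartile scaling, DESeq2 with batch, no count filter and a minimum of 50 counts each left 5 head genes higher, and without batch 4 were, ems being lost (adjusted p = 0.0603).

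With 1 library left out, 9 to 3082 genes were called and 0 to 5 head genes were higher, the least without DomKD B1, the only DomKD library of batch B, and 647 genes and 3 head genes without Ctrl A1. The medians of the 6 were 0.69 to 0.87 in these fits. With batch in the model, the fit without DomKD B1 compares the groups within batch A alone, DomKD A1 and A2 against Ctrl A1. The fit without Ctrl A1 compares them within batch B alone, DomKD B1 against Ctrl B1 and B2. These 2 fits rest on fewer libraries than the other fits, so fewer calls are set in part by the design. The value of kn ran from -0.72 to 0.53 and was 0.67 within batch B. The replicate block gave 1035 genes and 2 head genes, btd and croc. Same-numbered libraries correlated at -0.36 to 0.24 in their deviations from the group means. Those that share a batch were at 0.20 (A1) and 0.24 (B1), and those of different batches at -0.36, -0.12 and -0.096. These deviations carry the batch difference, so they cannot decide whether the numbers are pairs. The numbers were not read as pairs. The cause of the changes between fits was not tested.

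By exon length 2 of 6 genes kept their rank in DomKD and 3 of 6 in Ctrl. Before the start alone TAATCC was in 0 head genes, and at any annotated start in 2, with the AGGTAG core then in 1. TATAAA was in 1, and TCAGT in 5, both in the 1000-base window and at any annotated start, alternatives chosen after seeing the data. Of 13967 promoters, the 1000-base window held TATAAA in 60.0% and TCAGT in 64.8%. Before the start alone TAATCC was in 7.59% of all promoters. For any annotated start no share over all promoters was counted.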
